A study of Mus musculus with 60 samples.

Results

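Interleukin 6 (IL-6) was compared with no stimulus in primary mouse hepatocytes at 24 and 32 h, the latest hours of a time course measured on Affymetrix Mouse430_2 expression arrays. The samples were chosen by their titles: 4 arrays of IL-6-treated cells and 4 arrays of unstimulated cells, 2 per condition and hour and matched by hour, 8 of 60 arrays in all. The hepatocytes came from male C57BL/6N mice of 8 to 12 weeks, and each experiment used cells of a single animal or a pool of up to 3 animals. All cells were held on collagen-coated dishes and spent 24 h in serum-free medium with 100 nM dexamethasone, a synthetic glucocorticoid, before the stimulus, so the unstimulated cells carry that treatment as well. The IL-6 was recombinant human protein at 40 ng/ml. Arms with hepatocyte growth factor (HGF, 40 ng/ml) alone and with both factors, 4 arrays each at the same hours, serve below as a second measurement of the IL-6 response. The series text speaks of triplicates, while 2 arrays per group and hour were given here, and the labels do not say whether these came from separate animals. The p-values and standard errors therefore measure only the spread between arrays of a group, pooled over all 60 arrays, which may be technical.

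IL-6 binds its receptor (Il6ra) and the shared subunit gp130 (Il6st), which activates Janus kinases and the transcription factor STAT3. In the liver this pathway drives the acute phase response, in which hepatocytes secrete fibrinogen, hepcidin and other plasma proteins, while SOCS3, itself a product of a STAT3 target gene, binds gp130 and damps the signal. IL-6 is also known to lower cytochrome P450 enzymes in hepatocytes. STAT dimers bind palindromes of the form TTCNNNGAA.

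Promoter windows of strongly raised genes are shown because they are where STAT3 is known to act on its targets. Each window holds the 250 bases before the annotated start, 5′ to 3′ on the gene's strand, from RefSeq on GRCm38.p6. The first 4 belong to the largest rises in order of size, and Hamp was added after its values had been seen. Capitals mark matches to TTCNNNGAA, a palindrome whose search on either strand finds the same sites.
Socs3: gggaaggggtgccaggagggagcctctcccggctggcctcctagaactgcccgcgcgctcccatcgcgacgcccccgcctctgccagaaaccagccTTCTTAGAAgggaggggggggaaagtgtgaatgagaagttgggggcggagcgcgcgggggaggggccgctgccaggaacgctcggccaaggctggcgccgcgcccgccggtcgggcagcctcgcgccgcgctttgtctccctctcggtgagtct
Nat8f2: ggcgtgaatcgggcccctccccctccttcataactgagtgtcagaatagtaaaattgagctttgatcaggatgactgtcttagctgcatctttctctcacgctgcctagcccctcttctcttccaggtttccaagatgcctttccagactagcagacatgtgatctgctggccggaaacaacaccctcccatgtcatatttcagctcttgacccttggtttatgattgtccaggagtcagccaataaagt
Fga: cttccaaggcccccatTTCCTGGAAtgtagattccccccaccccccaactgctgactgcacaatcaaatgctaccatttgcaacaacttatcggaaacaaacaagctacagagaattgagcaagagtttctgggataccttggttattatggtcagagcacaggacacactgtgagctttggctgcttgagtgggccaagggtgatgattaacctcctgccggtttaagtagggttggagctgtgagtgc
Arrdc4: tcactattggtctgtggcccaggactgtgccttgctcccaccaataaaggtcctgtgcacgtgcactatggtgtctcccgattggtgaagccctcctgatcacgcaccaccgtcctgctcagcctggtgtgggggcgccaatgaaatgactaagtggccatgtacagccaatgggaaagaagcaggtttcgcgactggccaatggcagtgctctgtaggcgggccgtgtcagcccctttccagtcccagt
Hamp: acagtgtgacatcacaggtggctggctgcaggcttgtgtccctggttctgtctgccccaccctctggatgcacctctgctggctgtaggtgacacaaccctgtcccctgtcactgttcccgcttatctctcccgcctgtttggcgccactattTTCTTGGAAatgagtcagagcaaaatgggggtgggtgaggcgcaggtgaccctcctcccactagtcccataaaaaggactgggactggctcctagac
The Socs3 window (chr11:117969367-117969616, minus strand) held TTCTTAGAA, which begins 154 bases before the start. The Fga window (chr3:83025903-83026152, plus strand) held TTCCTGGAA at 234 bases, and the Hamp window (chr7:30944030-30944279, minus strand) held TTCTTGGAA at 97 bases. These letters were found neither in the Nat8f2 window (chr6:85869138-85869387, minus strand) nor in the Arrdc4 window (chr7:68749239-68749488, minus strand). The motif was present in 13 of 79 windows of genes that rose at least 2-fold (16.5%), in 6 of 60 windows of genes that fell at least 2-fold (10.0%) and in 704 of 11638 windows of all tested genes (6.05%). These shares are descriptions, and a match in letters is not a bound site.

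The arrays carried hepatocyte RNA: all 16 hepatocyte markers with a probe set exceeded the 40th percentile of an array on at least 1 of the 8 arrays. By contrast 9 of 16 lymphocyte and neutrophil markers did so on none. The same held for only 2 of 14 Kupffer cell and macrophage, 2 of 14 sinusoidal endothelial, 4 of 14 stellate cell and 2 of 8 cholangiocyte markers. Most markers of these other liver cells thus passed as well, so this measure does not show the cells to be hepatocytes alone. Array medians lay between 4.88 and 4.91 on the deposited log2 scale, and the replicate arrays of a group correlated at 0.9972 to 0.9981. The first IL-6 array at 24 h stood apart in the difference between 3′ and 5′ probe sets. This difference was 3.99 for its dap spike-in against 2.59 to 2.80 on the other 7 arrays, and 0.75 for Gapdh against 0.03 to 0.19. Without that array the count of rises or falls changed in 25 of 38 gene lists, marker lists included, by at most 2 genes; counts that moved by over 1.5 times are given where they stand. The bioB hybridization control read 8.13 to 8.23 on the unstimulated and 5.65 to 6.03 on the IL-6 arrays, so the handling that set this control and the treatment cannot be told apart. At the same hours it read 5.94 to 6.98 with HGF and 5.38 to 5.63 with both factors. The comparison with HGF thus carries a gap of its own. The part of these gaps in the differences between the settings without and with HGF was not tested.

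A gene was called when its limma p-value, adjusted by Benjamini-Hochberg over 14512 genes, was below 0.05. Averaged over both hours, IL-6 raised 2211 genes (15.2%) and lowered 2695 (18.6%), together 33.8% of those tested, and the median difference over all genes was -0.01 on the log2 scale. Most of these differences were small: 107 genes (0.737%) rose at least 2-fold and 76 (0.524%) fell at least 2-fold. Of the 84 such 2-fold genes with several probe sets, 13 had probe sets with differences of opposite sign. Counts of list members below are to be read against the 15.2% higher and 18.6% lower among all tested genes, which some of them lie near. At 24 h alone 24.8% of the genes passed, 1822 higher (12.6%) and 1774 lower (12.2%), and at 32 h alone 24.3% passed, 1377 higher (9.49%) and 2148 lower (14.8%). The 2153 genes called in the same direction at both hours were 59.9% of the 24 h calls and 61.1% of the 32 h calls, and 10 genes were called in opposite directions. The arrays of the conditions did not overlap at either hour for all 107 strong rises and for 75 of the 76 strong falls, against 15.6% of all tested genes for rises and 17.6% for falls. The strong rises and falls were chosen by size on the same arrays, so their lack of overlap largely follows from the choice. Without the first IL-6 array at 24 h, 1920 genes were higher (13.2%) and 2513 lower (17.3%), and 103 of the 107 rises and all 76 falls were still called and at least 2-fold. In bulk samples, fewer cells of a type and less RNA per cell cannot be told apart.

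Socs3, the feedback inhibitor of the pathway, showed the largest rise. Its log2 levels were 6.40 and 6.44 without and 10.77 and 10.89 with IL-6 at 24 h, and 6.93 and 6.65 without and 11.63 and 11.60 with IL-6 at 32 h. The lowest IL-6 array lay far above the highest unstimulated array, and the mean difference was 4.62 ± 0.06 (SE, 4 arrays against 4, limma adjusted p = 6.14e-44), a 24.6-fold rise. Its 3 probe sets ranged from 3.39 to 4.62, and values are those of the brightest. The difference had been 5.42 at 0.5 h and 3.90 at 16 h after stimulation.

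Other genes of the pathway rose by less. Of 27 tested members of a STAT3 and gp130 list, 17 rose, 3 fell and 7 did not pass, with a median difference of 0.17. Among the receptors, the oncostatin M receptor Osmr read 8.69 and 8.87 without and 10.14 and 10.06 with IL-6 at 24 h, and 7.70 and 7.84 without and 9.95 and 10.04 with IL-6 at 32 h. Its conditions did not overlap, and it rose by 1.77 ± 0.06 on its brightest probe set, while its 3 probe sets ranged from 0.33 to 1.77. Il6ra rose by 0.47 ± 0.05 and Il6st by 0.12 ± 0.03 (limma adjusted p = 0.0027). The leukaemia inhibitory factor receptor Lifr, named after its value had been seen, fell by 0.36. Stat3 itself read 8.71 and 8.87 against 9.33 and 9.52 at 24 h, and 8.46 and 8.44 against 9.57 and 9.58 at 32 h (unstimulated against IL-6, here and below), without overlap, and rose by 0.88 ± 0.05. The kinase gene Pim1 rose by 1.03 ± 0.06 and the NF-kappaB cofactor Bcl3 by 0.89 ± 0.04. The differences of the growth regulator Myc (0.07, limma adjusted p = 0.397), the inhibitor Socs1 (-0.01, adjusted p = 0.961) and the kinase Jak2 (0.10, adjusted p = 0.124) did not pass.

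Some immediate early genes were higher at these hours. Of 23 tested members 11 rose (9 without the first IL-6 array at 24 h) and 2 fell, with a median of 0.16. The transcription factor Cebpd, which binds promoters of acute phase genes, read 9.39 and 9.20 without and 11.62 and 11.57 with IL-6 at 24 h, and 9.29 and 9.09 without and 12.05 and 12.14 with IL-6 at 32 h. Its IL-6 arrays were all above its unstimulated arrays, and the rise was 2.60 ± 0.06, although its other probe set gave 1.04. Klf4, a zinc finger factor, read 8.72 and 8.70 against 10.26 and 10.28 at 24 h, and 9.25 and 9.36 against 11.14 and 11.36 at 32 h. It showed no overlap either and rose by 1.75 ± 0.10. Junb (0.85 ± 0.05), Fosl2 (0.83 ± 0.05) and Fos (0.77 ± 0.08), subunits of the AP-1 factor, rose by less than 2-fold. Gadd45g, a growth arrest gene, rose by 1.67 ± 0.09.

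**Figure D1:**
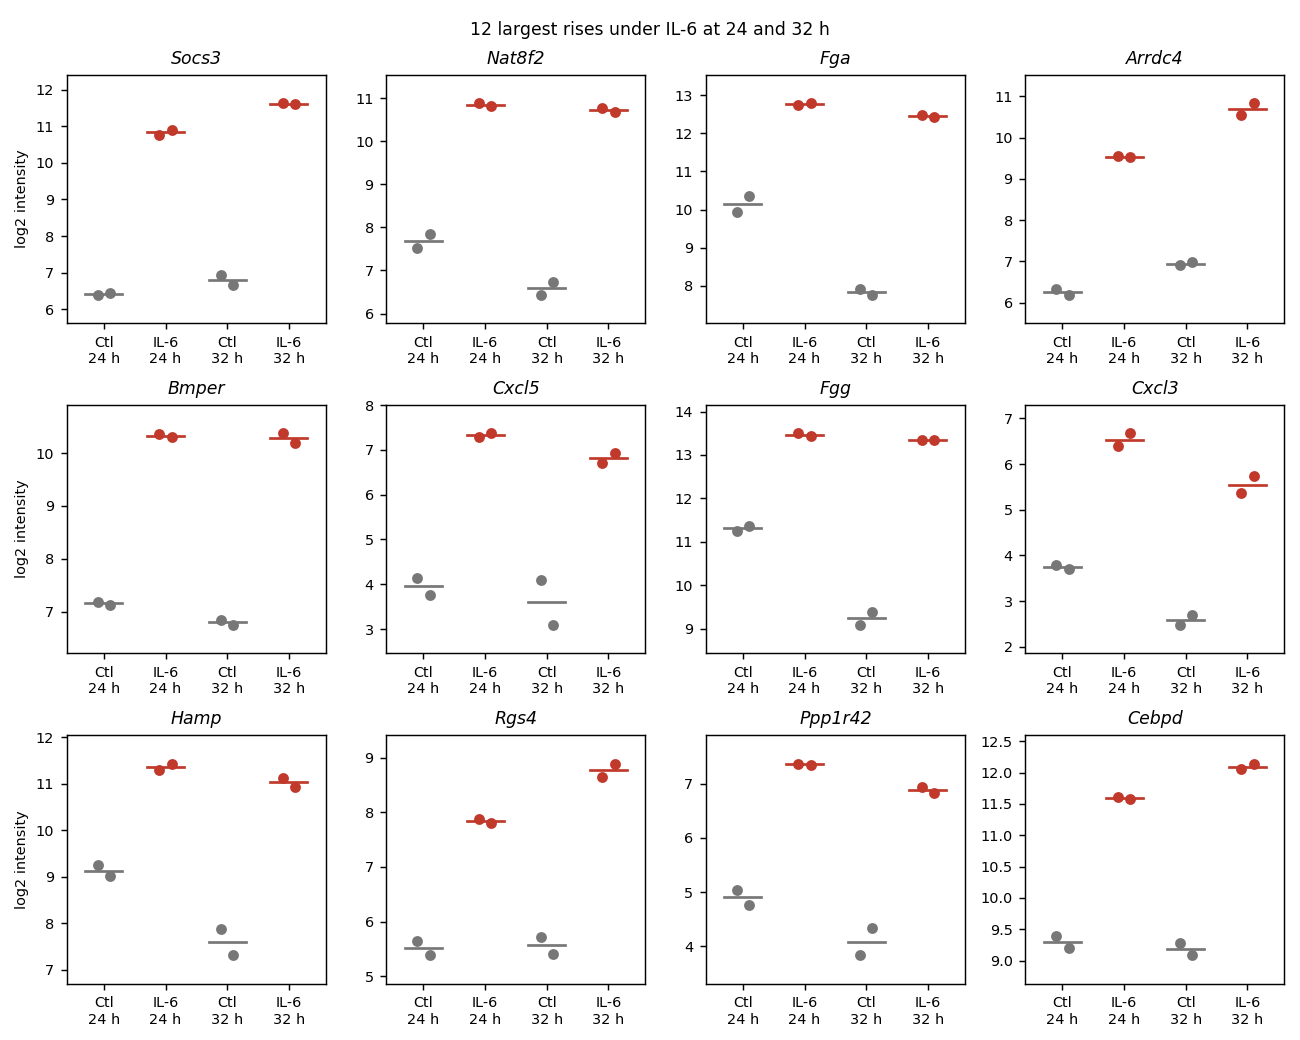
Log2 levels of the 12 genes with the largest rises, 1 panel per gene. Points are single arrays (2 per group), bars are group means, grey is unstimulated (Ctl) and red IL-6-treated cells at 24 and 32 h; each panel has its own vertical range. In each panel both IL-6 arrays lie above both unstimulated arrays at each hour, which the choice of these genes required.

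Positive acute phase proteins had the highest median of the lists described. Of 31 tested members 24 rose, 6 fell and 1 did not pass, with a median difference of 0.74, and 13 rose at least 2-fold. Fga, the fibrinogen alpha chain, read 9.93 and 10.36 without and 12.74 and 12.79 with IL-6 at 24 h, and 7.93 and 7.77 without and 12.48 and 12.42 with IL-6 at 32 h. The unstimulated arrays were much lower at 32 h than at 24 h while the IL-6 arrays stayed near the same level. The mean difference was 3.61 ± 0.06 (limma adjusted p = 6.6e-42), a 12.2-fold rise. Fgg, the gamma chain, read 11.25 and 11.37 without and 13.50 and 13.44 with IL-6 at 24 h, and 9.09 and 9.38 without and 13.33 and 13.34 with IL-6 at 32 h, the same arrangement as Fga, and rose by 3.13 ± 0.04. Fgb, the beta chain, named after its value had been seen, rose by 1.69 ± 0.05.

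Fgl1, a secreted fibrinogen-like protein, read 11.28 and 11.56 against 13.42 and 13.35 at 24 h, and 10.06 and 10.16 against 13.18 and 13.15 at 32 h. It rose by 2.51 ± 0.05 without overlap. Steap4, a metalloreductase, read 8.82 and 9.0032 against 10.43 and 10.61 at 24 h, and 5.87 and 6.00 against 9.32 and 9.11 at 32 h. Here the IL-6 arrays were also lower at 32 h, but by less than the unstimulated arrays, and the rise was 2.44 ± 0.08. The other probe set of Steap4 gave 1.16. Lrg1 (2.06), Apcs (serum amyloid P, 2.06), Saa3 (1.60) and Crp (C-reactive protein, 0.99) also rose and were named after their values had been seen. Of 17 tested protease inhibitors 11 rose and 2 fell, with a median of 0.37. They were led by the metalloproteinase inhibitor Timp1 (2.53 ± 0.07), Serpina3n (1.80 ± 0.07) and Serpina10 (1.69 ± 0.05), an inhibitor of coagulation factor X.

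The acute phase list did not move as a block. Agt, Mbl2, Mbl1, Il1rn, Saa2 and Saa1, named after their values had been seen, fell, with differences of -0.45 to -0.13 on the log2 scale, and the call of Il1rn was lost on leaving out 3 of the 8 arrays, each in turn (highest limma adjusted p = 0.0924). Saa1, a serum amyloid A gene singled out after its values had been seen, read 12.87 and 12.79 against 12.76 and 12.74 at 24 h, and 12.32 and 12.30 against 12.24 and 12.02 at 32 h. Its levels were high in both conditions, and it fell by 0.13 ± 0.04 (limma adjusted p = 0.014), a call lost on leaving out 2 of the 8 arrays, each in turn (highest limma adjusted p = 0.219). Saa1 and Saa2 are near-identical in sequence, and their probe sets may share signal. Of 17 negative acute phase and carrier proteins 10 fell and 3 rose, with a median of -0.12. Ahsg (fetuin A) fell by 0.61 ± 0.07 and Apoa1, the main protein of high density lipoprotein, by 0.54 ± 0.07, while Serpina7, the thyroxine-binding globulin, rose by 1.31 ± 0.06.

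Complement and coagulation genes were mixed, in counts that stand against 15.2% higher and 18.6% lower among all tested genes. Of 17 complement genes 7 rose and 6 fell, with a median of 0.08. The C1 inhibitor Serping1 rose by 0.94 ± 0.04. The lectin pathway protease Masp1 fell by 1.06 ± 0.06 on its brightest probe set, while its 5 probe sets ranged from -1.06 to 0.13. Of 24 coagulation genes 7 rose and 11 fell, with a median of -0.12. Pros1 (protein S) rose by 1.58 ± 0.05 and Serpinf2 (antiplasmin) by 1.33 ± 0.06, and F13b, a subunit of factor XIII, fell by 0.98 ± 0.06.

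The fibrinogen differences grew between 24 and 32 h. The IL-6 difference itself was tested between the hours, and 290 genes (2%) passed, 129 (0.889%) with a higher and 161 (1.11%) with a lower difference at 32 h. This count rests on few arrays: it was 114 without the first IL-6 array at 24 h (110 of them among the 290), 101 without the second unstimulated array at 24 h, 151 and 136 without the first or second unstimulated array at 32 h, and 141 without the second IL-6 array at 32 h. Of the 107 strong rises 31 were larger at 32 h and 1 was larger at 24 h, and in the acute phase list 12 members were larger at 32 h and 0 smaller. The difference of Fga was 2.62 at 24 h and 4.60 at 32 h, a gain of 1.98 (limma adjusted p = 5.94e-18). Fgg gained 1.95 (adjusted p = 1.72e-21 in limma), Steap4 1.67 and Hamp 1.20. From 24 to 32 h the mean of Fga shifted by -2.29 in unstimulated and by -0.31 in IL-6-treated cells. The shifts were -2.08 and -0.13 for Fgg, -1.37 and -0.12 for Serpina10, and -1.31 and -0.22 for Fgl1. For these 4 genes the larger shift was in the unstimulated cells. Over the 290 genes this was so in 140, and over all genes in 49.2%.

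Earlier hours showed the same arrangement. Unstimulated cells averaged 11.14 at 8 h, 10.66 at 16 h, 10.14 at 24 h and 7.85 at 32 h for Fga. IL-6-treated cells averaged 12.89 at 8 h, 12.74 at 16 h, 12.76 at 24 h and 12.45 at 32 h. For Serpina10 the unstimulated means were 12.27 at 8 h, 12.17 at 16 h, 11.59 at 24 h and 10.22 at 32 h. The IL-6 means were 12.83 at 8 h, 12.94 at 16 h, 12.65 at 24 h and 12.53 at 32 h. The level with IL-6 thus varied little for both genes while the level without it was lower at each later hour. Of the 24 acute phase genes that rose, 21 had unstimulated levels at 24 and 32 h below those of the 4 arrays at 0 h, and 13 had IL-6 levels above them. The 10 unstimulated arrays at 0 to 4 h had dap 3′ to 5′ differences of 1.18 to 1.52 and the other 50 arrays 2.46 to 3.99; the part of this gap in comparisons with 0 h, and in IL-6 differences at 0.5 h, was not tested.

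**Figure D2:**
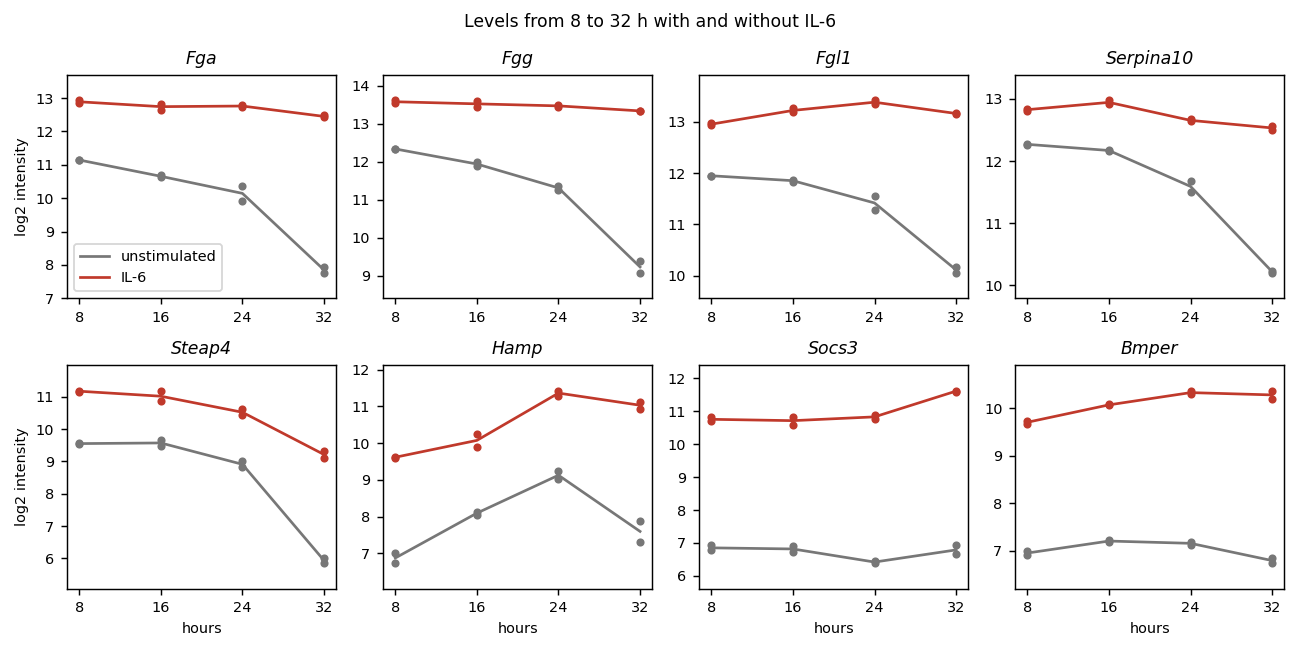
Log2 levels of 8 genes against hours after stimulation (8 to 32 h) in unstimulated and IL-6-treated cells. Points are single arrays and lines join group means; each panel has its own vertical range. Fga, Fgg, Fgl1 and Serpina10 stay nearly level with IL-6 and are lower at 32 h than at 8 h without it, whereas Socs3 and Bmper keep a wide gap throughout.

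Genes with other kinds of difference between the hours included Akr1c6, a hydroxysteroid dehydrogenase. It read 6.83 and 7.08 against 4.77 and 4.72 at 24 h, and 4.62 and 4.88 against 4.34 and 3.90 at 32 h. Its difference was -2.21 at 24 h and -0.63 at 32 h, when the unstimulated arrays lay close to the IL-6 arrays (difference between the hours 1.58, limma adjusted p = 4.33e-07). All Akr1c6 levels at 32 h, and both with IL-6 at 24 h, lay below the array medians of 4.88 to 4.91. The sizes of the Akr1c6 differences are therefore uncertain. Mei4, a meiotic recombination gene, read 4.12 and 3.73 against 4.75 and 5.33 at 24 h, and 5.53 and 5.69 against 5.18 and 4.40 at 32 h. Its difference was 1.11 at 24 h (limma adjusted p = 4.35e-05) and -0.82 at 32 h (limma adjusted p = 0.0021), so the sign turned, and the average over the hours did not pass. Only 2 of 4 unstimulated arrays exceeded the 40th percentile for Mei4, so the sizes of these differences are uncertain. Gm13889 had differences of -0.56 and -1.81, although its 2 probe sets disagreed, with averages of -1.18 and 0.12. Ms4a6d (-1.14) and Ttc30b (-1.10) also had a lower difference at 32 h. Each call was lost on leaving out 4 of the 8 arrays, each in turn, the first IL-6 array at 24 h among them (limma adjusted p = 0.116 and 0.132).

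Hepcidin (Hamp), the liver hormone that blocks iron export from cells, is a member of the acute phase list and rose with IL-6. It read 9.24 and 9.01 without and 11.29 and 11.43 with IL-6 at 24 h, and 7.88 and 7.31 without and 11.13 and 10.93 with IL-6 at 32 h. All IL-6 arrays lay above all unstimulated arrays, and the rise was 2.84 ± 0.11 (limma adjusted p = 1.89e-25), 7.14-fold. Unlike most acute phase genes that rose, Hamp had an unstimulated mean at 24 and 32 h (8.36) above its mean at 0 h (6.71). The IL-6 mean at these hours was 11.20. Its paralogue Hamp2 is close in sequence, and probes may share signal. Of 25 tested genes of iron handling 12 rose and 4 fell, with a median of 0.17. The zinc and iron importer Slc39a14 (ZIP14) read 8.41 and 8.70 against 10.00 and 10.19 at 24 h, and 8.84 and 8.67 against 10.18 and 10.13 at 32 h, again without overlap, and rose by 1.46 ± 0.06. Of 10 zinc and metallothionein genes 7 rose and 0 fell, with a median of 0.39. The metal-binding metallothioneins Mt1 and Mt2 rose by 0.63 ± 0.03 and 0.61 ± 0.03.

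The bone morphogenetic protein (BMP) pathway, the other known driver of hepcidin, was altered in its secreted members. Bmper, a BMP-binding protein, read 7.19 and 7.13 without and 10.36 and 10.30 with IL-6 at 24 h, and 6.84 and 6.75 without and 10.37 and 10.19 with IL-6 at 32 h. Its rise of 3.33 ± 0.06 was among the 12 largest. The ligand Bmp4 rose by 1.64 ± 0.10. Id1, a BMP target gene, read 7.91 and 7.99 against 8.93 and 9.18 at 24 h, and 7.07 and 6.95 against 8.40 and 8.42 at 32 h, without overlap, and rose by 1.25 ± 0.09. The ligand Bmp6 moved the other way. It read 6.61 and 6.85 against 5.77 and 5.70 at 24 h, and 7.68 and 7.43 against 6.16 and 6.18 at 32 h and fell by 1.19 ± 0.12. Of 24 tested genes of BMP and activin signalling 9 rose and 3 fell, with a median of 0.15. In the liver Bmp6 is made mainly by sinusoidal endothelial cells. Of 13 tested endothelial markers 3 rose and 0 fell (1 rose without the first IL-6 array at 24 h), and their summed log2 level was 9.70 to 9.76 without and 9.95 to 10.01 with IL-6 at 24 h, and 9.95 to 9.98 without and 9.88 to 9.98 with IL-6 at 32 h. The part of such cells in the Bmp6 values was not tested.

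Among chemokines, neutrophil attractants rose. Cxcl5 read 4.15 and 3.75 without and 7.28 and 7.37 with IL-6 at 24 h, and 4.10 and 3.09 without and 6.71 and 6.93 with IL-6 at 32 h, a rise of 3.30 ± 0.17. Cxcl3 read 3.80 and 3.70 against 6.39 and 6.67 at 24 h, and 2.48 and 2.70 against 5.36 and 5.73 at 32 h, a rise of 2.87 ± 0.17. The 0 h mean of Cxcl3, 7.07, lay above its late means without (3.17) and with IL-6 (6.04). That of Cxcl5, 4.98, lay below its late IL-6 mean of 7.07. For both genes 0 of 4 unstimulated arrays exceeded the 40th percentile of the array, so the size of the rise is uncertain. Cxcl1 rose by 1.02 ± 0.04 and the alarmin Il33 by 1.41 ± 0.11. Other members fell. Cxcl13, a B cell attractant, read 7.72 and 7.70 against 6.01 and 5.86 at 24 h, and 7.41 and 7.36 against 5.69 and 5.49 at 32 h, and fell by 1.79 ± 0.08 without overlap. Cxcl10, a chemokine induced by interferon, read 7.12 and 7.29 against 6.67 and 6.60 at 24 h, and 7.09 and 6.89 against 5.90 and 6.17 at 32 h, and fell by 0.76 ± 0.11. In all, 5 of 23 tested chemokine and cytokine genes rose and 8 fell, with a median of -0.04. Interferon response genes were mixed as well, with 7 of 23 higher and 6 lower. Among all tested genes 15.2% were higher and 18.6% lower. The GTPase Iigp1 rose by 1.05 ± 0.07, Stat2 rose by 0.59 ± 0.09, and Usp18, a brake on interferon signalling, fell by 0.40 ± 0.08.

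The remaining large rises belonged to other functions. Nat8f2, of the acetyltransferase family, read 7.52 and 7.85 without and 10.89 and 10.83 with IL-6 at 24 h, and 6.44 and 6.74 without and 10.78 and 10.69 with IL-6 at 32 h. It rose by 3.66 ± 0.11 (12.6-fold) on its brightest probe set, while its 3 probe sets ranged from 2.12 to 3.66. Its mean at 0 h was 10.14, so the IL-6 arrays lay near the starting level and the unstimulated arrays below it. Arrdc4, an alpha-arrestin, read 6.33 and 6.20 against 9.54 and 9.52 at 24 h, and 6.91 and 6.98 against 10.54 and 10.83 at 32 h, a rise of 3.51 ± 0.09. The other probe set of Arrdc4 gave 1.71. Of the other tested alpha-arrestins, Arrdc3 rose by 0.25 ± 0.10 and Txnip, an inhibitor of thioredoxin, fell by 0.18 ± 0.07, but the call of Arrdc3 was lost on leaving out 5 of the 8 arrays, each in turn, and that of Txnip on leaving out any of the 8 (highest limma adjusted p = 0.145 and 0.141). Rgs4, a regulator of G protein signalling, read 5.64 and 5.39 against 7.87 and 7.80 at 24 h, and 5.73 and 5.41 against 8.65 and 8.89 at 32 h, a rise of 2.76 ± 0.12. The 3 probe sets of Rgs4 ranged from 1.64 to 3.26. Ppp1r42 rose by 2.62 ± 0.14 on its brightest probe set, while its 3 probe sets ranged from 0.09 to 2.62. Nrg4, a ligand of the epidermal growth factor family, rose by 1.49 ± 0.10, the receptor gene Egfr by 0.69 ± 0.05 (7 probe sets, from -0.01 to 0.69), and Angptl4, an inhibitor of lipoprotein lipase, by 1.22 ± 0.05.

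Falls were largest among enzymes of steroid, retinoid and xenobiotic metabolism. Akr1c19, an aldo-keto reductase, read 10.29 and 10.23 without and 7.75 and 7.60 with IL-6 at 24 h, and 8.67 and 8.70 without and 6.50 and 6.18 with IL-6 at 32 h. The conditions did not overlap, and it fell by 2.46 ± 0.07 on the log2 scale (5.52-fold, limma adjusted p = 3.16e-31). Akr1c20 read 8.65 and 8.68 against 6.46 and 6.33 at 24 h, and 7.93 and 7.85 against 5.51 and 5.37 at 32 h, and fell by 2.36 ± 0.08. The other probe set of Akr1c20 gave -1.14. Adh1, a major hepatic alcohol dehydrogenase, read 12.28 and 12.45 against 9.91 and 9.92 at 24 h, and 10.38 and 10.45 against 8.57 and 8.49 at 32 h, and fell by 2.16 ± 0.08. In these genes the level was lower at 32 h than at 24 h in both conditions as well. Of 29 tested aldo-keto reductases and alcohol dehydrogenases 20 fell and 1 rose, with a median of -0.43. The retinol dehydrogenase Rdh7 read 9.30 and 9.53 against 7.83 and 7.64 at 24 h, and 7.87 and 7.79 against 6.10 and 5.82 at 32 h, and fell by 1.77 ± 0.09.

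Conjugation enzymes and flavin monooxygenases had the lowest median of the lists described, -0.56, with 33 of 43 tested members lower and 4 higher. The glutathione transferase Gstm3 read 10.49 and 10.62 without and 8.38 and 8.07 with IL-6 at 24 h, and 9.94 and 9.85 without and 7.20 and 7.46 with IL-6 at 32 h, and fell by 2.45 ± 0.06. The other probe set of Gstm3 gave -1.34. Gsta2 read 12.61 and 12.54 against 10.70 and 10.56 at 24 h, and 12.02 and 12.06 against 9.89 and 9.73 at 32 h, and fell by 2.09 ± 0.08. Neither showed overlap. Gsta4 fell by 1.71 ± 0.07 and Gstm2 by 1.44 ± 0.05. Members of the Akr1c, Gst and Cyp families resemble each other in sequence, so a probe set may report several of them.

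Of 44 cytochrome P450 genes 25 fell and 3 rose, with a median of -0.27. Cyp3a11, a major oxidase of drugs in mouse liver, read 11.06 and 11.38 without and 9.44 and 9.44 with IL-6 at 24 h, and 9.20 and 9.28 without and 7.87 and 7.43 with IL-6 at 32 h. The IL-6 arrays were the lower ones at each hour, and it fell by 1.69 ± 0.06. Cyp2b10, another drug oxidase, fell by 1.23 ± 0.07, whereas Cyp2j5, an arachidonic acid epoxygenase, rose by 0.83 ± 0.08. Cyp2e1, the ethanol-oxidizing member (-0.04, limma adjusted p = 0.596), did not pass. The nuclear receptors Nr1i2 (PXR) and Nr1h4 (FXR), which control drug and bile acid genes, fell by 0.53 ± 0.11 and 0.58 ± 0.07, while the difference of Hnf4a, a central hepatocyte factor, was -0.05 (limma adjusted p = 0.571). Of 16 tested hepatocyte transcription factors 3 rose and 6 fell, where 15.2% and 18.6% of all tested genes did. Of 32 bile acid genes 16 fell and 1 rose, with a median of -0.20. The canalicular phospholipid transporter Abcb4 fell by 1.37 ± 0.07 and the sterol hydroxylase Cyp27a1 by 0.68 ± 0.04.

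**Figure D3:**
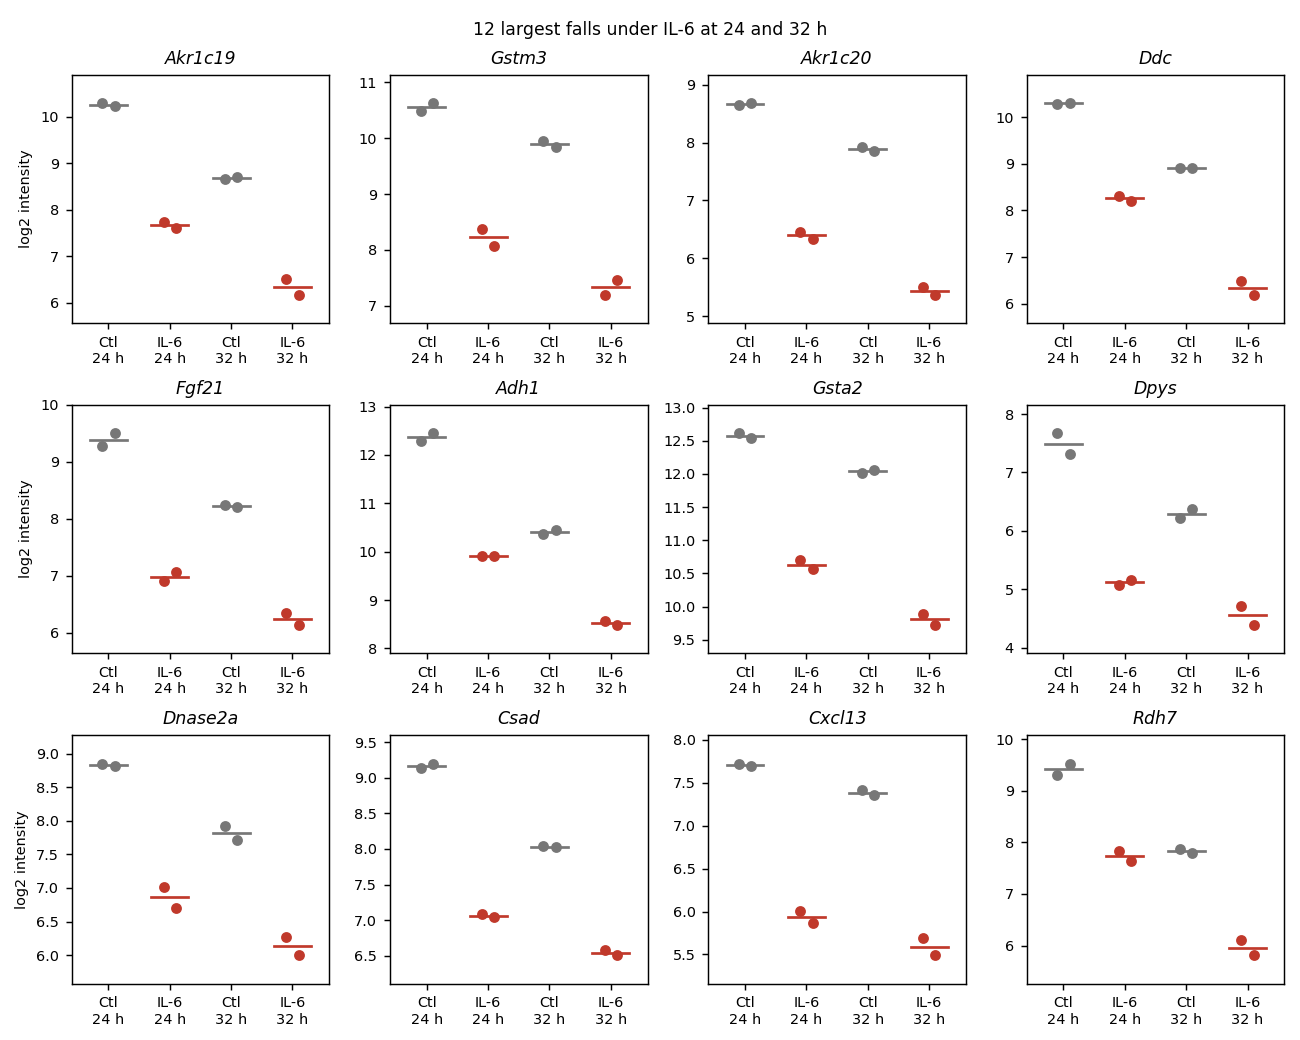
Log2 levels of the 12 genes with the largest falls, 1 panel per gene. Points are single arrays (2 per group), bars are group means, grey is unstimulated (Ctl) and red IL-6-treated cells at 24 and 32 h; each panel has its own vertical range. In each panel both IL-6 arrays lie below both unstimulated arrays at each hour, which the choice of these genes required.

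Enzymes of amino acid breakdown were lower as well. Of 47 tested genes of the urea cycle and amino acid breakdown 32 fell and 6 rose, with a median of -0.40. Ddc, the aromatic amino acid decarboxylase, read 10.29 and 10.30 against 8.32 and 8.20 at 24 h, and 8.91 and 8.92 against 6.49 and 6.20 at 32 h, and fell by 2.31 ± 0.06, although its other probe set gave -0.18. Csad, an enzyme of taurine synthesis, read 9.13 and 9.20 against 7.08 and 7.05 at 24 h, and 8.03 and 8.03 against 6.58 and 6.51 at 32 h, and fell by 1.80 ± 0.07. Its conditions did not overlap at either hour. Bhmt, which remethylates homocysteine, fell by 1.69 ± 0.08, the tryptophan oxygenase Tdo2 by 1.34 ± 0.10 and the alanine transaminase Gpt by 1.27 ± 0.06. Dpys, an enzyme of pyrimidine breakdown, fell by 2.06 ± 0.10 on its brightest probe set, while its 3 probe sets ranged from -2.06 to -0.20. The lysosomal nuclease Dnase2a fell by 1.82 ± 0.09.

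Of 33 tested genes of fatty acid oxidation and ketogenesis 24 fell and 2 rose (24 and 1 without the first IL-6 array at 24 h), with a median of -0.31. Acaa1b, a peroxisomal thiolase, fell by 1.74 ± 0.07. Fgf21, a hormone that the liver secretes in fasting, read 9.28 and 9.50 without and 6.90 and 7.06 with IL-6 at 24 h, and 8.25 and 8.21 without and 6.35 and 6.14 with IL-6 at 32 h, and fell by 2.19 ± 0.09. Its mean at 0 h was 6.20, closer to the IL-6 than to the unstimulated arrays. In glucose handling 13 of 27 genes fell and 9 rose, with a median of -0.25. The glucose transporter Slc2a2 fell by 1.24 ± 0.06 and the gluconeogenic enzyme Fbp1 by 0.79 ± 0.06, while the glycolytic genes Pfkp (0.74 ± 0.06) and Pfkfb3 (0.68 ± 0.09) rose. Of 31 genes of fatty acid and triglyceride synthesis 12 fell and 6 rose, with a difference of -0.82 for Pparg, a lipogenic nuclear receptor.

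Differences of the 12 largest falls were small at first: they lay between -0.49 and 0.12 at 0.5 h and between -2.85 and -0.59 at 16 h. Of the 76 strong falls, 40 had unstimulated levels at 24 and 32 h above the 0 h level, and 13 had IL-6 levels above it. Of 16 hepatocyte markers 10 fell and 2 rose. Their summed log2 level was 16.48 to 16.53 without and 16.38 to 16.42 with IL-6 at 24 h, and 16.14 to 16.15 without and 16.03 to 16.07 with IL-6 at 32 h. Its part in the falls was not tested. Albumin (Alb), the main plasma protein, was named after its value had been seen and fell by 0.08 ± 0.02.

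Secretory and growth genes shifted by small amounts, in counts that stand against 15.2% higher and 18.6% lower among all tested genes. Of 26 endoplasmic reticulum chaperone and secretory genes 20 rose and 4 fell, with a median of 0.21. Calr (calreticulin) rose by 0.41 ± 0.04 and the disulfide isomerase Pdia6 by 0.68 ± 0.05, the latter with another probe set at -0.03. Of 29 genes of mitosis 11 rose and 1 fell, with a median of 0.22, and of 33 genes of DNA replication 11 rose and 5 fell. Ccne1 (cyclin E1) rose by 0.56 ± 0.06 and Rrm2, a ribonucleotide reductase subunit, by 0.47 ± 0.08, whereas the thymidine kinase Tk1 fell by 0.37 ± 0.08. In ribosome biogenesis 9 of 25 rose and 1 fell, none by 2-fold. Of 23 cholesterol genes 11 rose and 2 fell, and the cholesterol exporter Abca1 rose by 0.86 ± 0.05.

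Stress and structural genes were divided, in counts that stand against 15.2% higher and 18.6% lower among all tested genes. Of 18 NRF2-linked oxidative stress genes 10 fell and 4 rose. The quinone reductase Nqo1 fell by 0.76 ± 0.08 and the mitochondrial superoxide dismutase Sod2 rose by 0.89 ± 0.03. In the integrated stress response 4 of 17 genes rose and 6 fell, with a difference of -0.51 for the glutathione-degrading enzyme Chac1. Of 20 cell cycle inhibitors and p53 targets 6 rose and 4 fell (4 and 2 without the first IL-6 array at 24 h). Of 43 matrix and cytoskeleton genes 12 rose and 10 fell, with the hyaluronan receptor Cd44 higher by 0.75 ± 0.05 on its brightest probe set, while its 4 probe sets ranged from -0.11 to 0.75. Of 26 growth factor and insulin genes 11 rose and 9 fell.

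**Figure D4:**
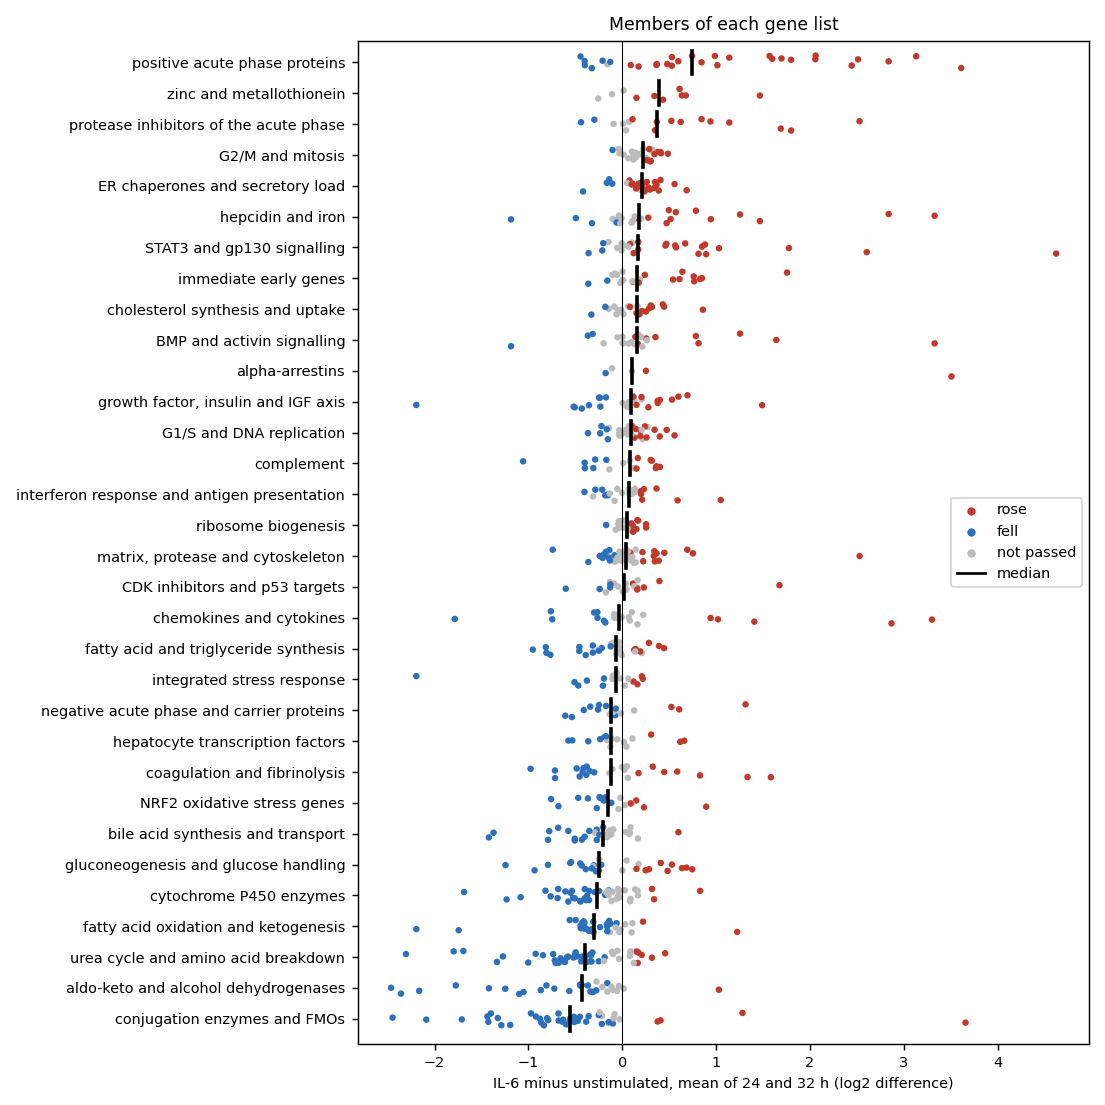
Log2 difference between IL-6-treated and unstimulated cells, mean of 24 and 32 h, for each tested member of each gene list, ordered by list median (black bar). Points are genes, red where they rose, blue where they fell and grey where they did not pass. Positive acute phase proteins have the highest median, 0.74, and conjugation enzymes the lowest, -0.56.

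Markers of other liver cell types were not constant, in counts that stand against 15.2% higher and 18.6% lower among all tested genes. Of 12 tested Kupffer cell and macrophage markers 7 rose and 1 fell. The scavenger receptor Cd163 read 3.41 and 3.20 against 4.81 and 4.36 at 24 h, and 3.28 and 3.55 against 4.32 and 4.25 at 32 h, with 0 of 4 unstimulated arrays above the 40th percentile, and rose by 1.08 ± 0.19, while the lysosomal marker Cd68 fell by 0.66 ± 0.09. Their summed log2 level was 9.29 to 9.32 without and 9.27 to 9.37 with IL-6, so the conditions overlapped. The sum was taken over unlogged levels, so the brightest markers weigh most in it. Of the 4 markers in this list that did not pass, Adgre1 differed by 0.11, Clec4f by 0.05 and Csf1r by -0.08, while the list median was 0.34. Stellate cell markers (3 of 10 higher, 1 lower) summed to 8.87 to 8.96 without and 9.02 to 9.24 with IL-6, with the matrix proteoglycan Dcn higher by 1.02 ± 0.10 and its other probe set at -0.07. Cholangiocyte markers (3 of 7 higher, 1 lower) summed to 10.02 to 10.24 without and 10.16 to 10.29 with IL-6. Of 9 tested lymphocyte and neutrophil markers 0 were called. The part of these cells in the differences described here was not tested.

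IL-6 added to HGF was compared with HGF alone on other arrays, which asks how far the response holds when the growth factor is present. There 4359 genes (30%) passed, 2216 higher (15.3%) and 2143 lower (14.8%). Of the 107 strong rises 105 (98.1%) were called higher with HGF, with medians of 1.47 without and 1.39 with HGF. Of the 76 strong falls 65 (85.5%) were called lower, with medians of -1.27 without and -0.54 with HGF. The members were selected by size in the arrays without HGF, which by itself favours smaller values in the others. The difference between the responses, a test added after seeing the data, passed for 2021 genes (13.9%), 767 higher (5.29%) and 1254 lower (8.64%) without HGF. Among the strong falls 64 were smaller with HGF and 1 was larger, and among the strong rises 32 were smaller and 21 larger.

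Socs3 rose to a like degree in both settings. It read 6.45 and 6.44 with HGF and 10.66 and 10.79 with both factors at 24 h, and 6.80 and 6.57 with HGF and 11.27 and 11.46 with both at 32 h, a difference of 4.48 on HGF, and the test between the settings did not pass (difference 0.14, limma adjusted p = 0.329). Fga read 8.71 and 8.86 with HGF and 12.38 and 12.30 with both factors at 24 h, and 7.30 and 6.9999 with HGF and 12.03 and 12.12 with both at 32 h, a difference of 4.24, larger than without HGF (limma adjusted p = 6.35e-08 between the settings). Serpina7 read 10.35 and 10.74 with HGF and 12.51 and 12.52 with both factors at 24 h, and 9.47 and 9.31 with HGF and 12.31 and 12.31 with both at 32 h. Its rise was 2.45 with HGF and 1.31 without, and that of Steap4 was 3.21 and 2.44. For Fga and Steap4 the HGF arrays lay below the unstimulated arrays at each hour. Their arrays with both factors lay below those with IL-6 alone as well. Klf4 had a smaller rise with HGF, 0.69 against 1.75 without (limma adjusted p = 5.82e-07 between the settings). Its arrays with both factors nevertheless lay above those with IL-6 alone at each hour. Among the falling genes, Bmp6 fell further with HGF, by 1.89.

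Csad had no measurable IL-6 difference in the presence of HGF. It read 6.56 and 6.58 with HGF and 6.53 and 6.36 with both factors at 24 h, and 6.11 and 6.18 with HGF and 6.35 and 6.27 with both at 32 h. The difference on HGF was 0.02 (limma adjusted p = 0.853), and the difference between the settings -1.82 (limma adjusted p = 4.45e-18). The HGF arrays of Csad lay below the arrays with IL-6 alone at the same hour. Rdh7 read 6.52 and 6.00 with HGF and 6.50 and 6.46 with both factors at 24 h, and 5.53 and 5.22 with HGF and 5.27 and 5.09 with both at 32 h, a difference of 0.01, with the HGF arrays again lower than the arrays with IL-6 alone at the same hour. Gstm3 read 8.37 and 8.43 with HGF and 7.56 and 7.63 with both factors at 24 h, and 7.60 and 7.50 with HGF and 6.91 and 6.80 with both at 32 h, and its difference of -0.75 with HGF passed (limma adjusted p = 3.66e-14). Ddc differed by -1.96 with HGF and by -2.31 without. In the lists, 28 of 43 conjugation genes, 13 of 44 cytochrome P450 genes and 18 of 47 amino acid genes fell with HGF, and 22 of 31 acute phase genes rose. Among all tested genes 14.8% fell and 15.3% rose under IL-6 with HGF.

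**Figure D5:**
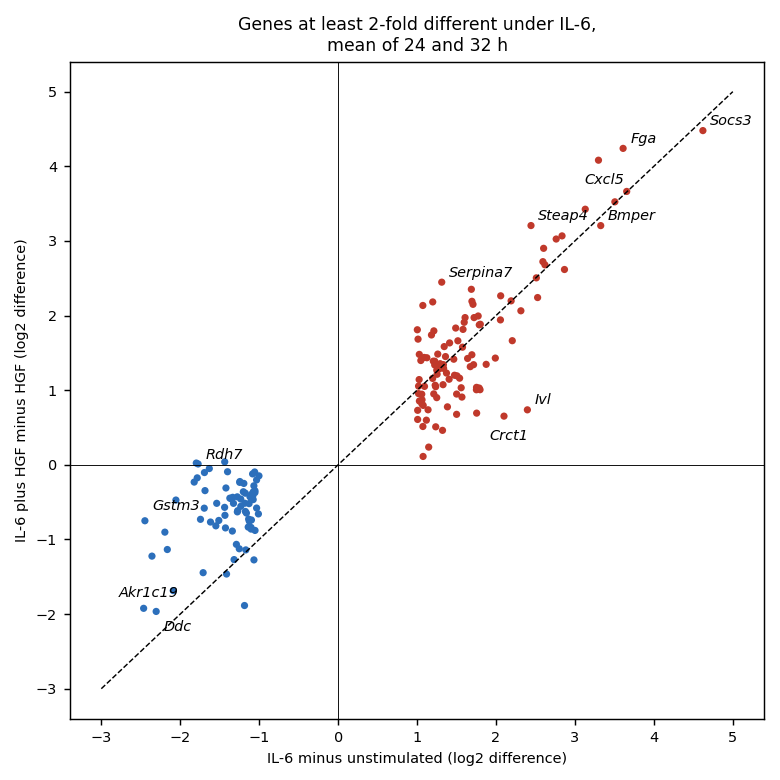
IL-6 difference with HGF (vertical) against that without HGF (horizontal), both log2 and averaged over 24 and 32 h, for the 107 genes that rose at least 2-fold (red) and the 76 that fell at least 2-fold (blue) without HGF. The dashed line marks equal differences; most falls lie above it, closer to 0 with HGF, and rises lie on both sides of it.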

How the data were processed

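Expression was measured on Affymetrix Mouse430_2 arrays, and the authors deposited 1 table of log2 values for 60 arrays. Its scale was judged from the values, and the summarisation and scaling are not given in the sources used here. Of 45101 probe sets, 34958 carried 1 gene symbol, 932 several and 9211 none in the platform annotation; each of 18193 genes was represented by its brightest probe set. The 14512 genes above the 40th percentile of an array on at least 2 of the 60 arrays were tested with limma 3.58.1 in R 4.3.3, in 1 fit over all groups with a mean-variance trend and 31 residual degrees of freedom, with Benjamini-Hochberg adjustment at 0.05. Contrasts were IL-6 minus unstimulated at 24 h, at 32 h and on average, the difference between the hours, and IL-6 plus HGF minus HGF; the contrast between the settings with and without HGF was added after seeing the data. Precision rests on there being 2 arrays per group.

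The text names the 12 largest rises and falls with arrays apart at both hours, the 4 largest differences between hours in each direction, up to 5 called members per list, and Socs3, Il6ra, Il6st, Osmr, Stat3, Cebpd and Cxcl10; others are said to be named after their values were seen, or were named as not passing. Members and gene lists were chosen with earlier results of these data known. Scripts were tested on simulated data. Alternatives were other filters, probe set rules and normalization, no trend, a replicate block, a fit of the compared arrays alone and each array left out.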

Additional observations from a re-analysis of the deposited data

Results flagged for a closer look

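Of the 202 tested genes named by the rule or in the text, 46 had an IL-6 difference that differed between the hours in limma's test, and 93 one that differed between cells without and with HGF. Values are given for the 12 largest rises, the 12 largest falls, the 8 genes chosen for a difference between the hours and genes whose test stands in the text. Among 33 genes so examined for the hours, 17 passed. The value at 32 h minus that at 24 h was 1.98 for Fga, 1.95 for Fgg, 1.67 for Steap4, 1.58 for Akr1c6, 1.47 for Arg1, 1.25 for Serpina10, 1.20 for Hamp, 1.09 for Fgl1, 0.97 for Nat8f2, 0.88 for Rgs4, 0.61 for Csad and 0.60 for Cebpd. It was -1.94 for Mei4, -1.25 for Gm13889, -1.14 for Ms4a6d, -1.10 for Ttc30b and -0.53 for Ddc. Without the first IL-6 array at 24 h 4 of these calls were lost, those of Rgs4 (limma adjusted p = 0.0844), Ddc (0.0938), Ms4a6d (0.116) and Ttc30b (0.132). Leaving out other arrays in turn also ended the calls of Csad (3 of 8 arrays), Nat8f2 (2) and Arg1 (1).

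For the comparison without and with HGF 23 of 31 genes so examined passed. Without HGF minus with HGF, the IL-6 difference was -0.63 for Fga, -1.13 for Serpina7, -0.76 for Steap4 and -0.52 for Hp. It was -0.78 for Cxcl5, -0.29 for Fgg and -0.30 for Cebpd. All of these had the larger IL-6 difference with HGF, which need not mean a higher level. For Fga, Fgg, Steap4 and Cebpd at 24 h, HGF arrays lay below unstimulated ones. Their arrays with both factors lay below those with IL-6 alone. The arrays with both factors overlapped those with IL-6 alone for Serpina7 and lay above them for Cxcl5. Among the falling genes the value was -1.82 for Csad, -1.78 for Rdh7, -1.70 for Gstm3, -1.61 for Cxcl13, -1.59 for Dnase2a and -1.58 for Dpys. It was -1.29 for Fgf21, -1.13 for Akr1c20, -1.03 for Adh1, -0.54 for Akr1c19, -0.40 for Gsta2 and -0.34 for Ddc. All of these fell less with HGF, where the HGF arrays lay below the unstimulated arrays at the same hour. The HGF arrays of Dpys (4.37 to 4.83) and those of Akr1c20 with both factors (4.08 to 4.66) lay below the array medians. For these 2 genes the size of the difference with HGF is therefore uncertain. The value was 1.66 for Ivl, 1.45 for Crct1 and 1.06 for Klf4, which had smaller rises with HGF, and 0.70 for Bmp6, which fell further with it. Leaving out 1 array at a time ended the call for Cxcl5 (6 of 16 arrays), Gsta2 (5) and Cebpd (2). In a fit of the compared arrays alone the calls of Ddc and Gsta2 were lost (limma adjusted p = 0.0752 and 0.1002). The largest rises and falls were selected by their size without HGF.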

How the results depend on the processing

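With each array left out in turn, the number of genes called ranged from 4265 to 4489 for the mean of both hours, 2530 to 2994 at 24 h, 2372 to 2879 at 32 h, 101 to 363 for the difference between the hours, 3734 to 4118 with HGF and 1640 to 1952 for the difference between the settings. Without the mean-variance trend 179 genes differed between the hours, against 290. Fitting only the compared arrays gave 4634, 2580, 3900, 201, 3291 and 1369 genes in the same order of comparisons. The full fit gave 4906, 3596, 3525, 290, 4359 and 2021. Quantile normalization moved the share of higher calls from 44.48% to 60.18% for the difference between hours (201 higher, 133 lower) and from 37.95% to 49.42% for the difference between settings (1030 higher, 1054 lower), and shifted the median of all genes to -0.0034; the cause was not tested. Same-numbered arrays did not deviate together (correlations of -0.0942 to 0.1042). These are differences between single arrays, so they cannot decide whether equal numbers mark cells of the same animals. With the replicate block the counts were 4869, 3556, 3486, 303, 4337 and 1975 in the order above. Over all named genes and alternatives, 3159 values for the mean of both hours kept direction and side of the threshold, 64 lost the threshold, 2 gained it and 1 reversed: Plk2, a stress kinase, was 0.02 with the mean over probe sets (-0.24 otherwise). For the named genes called there, 615 values for the difference between hours kept both and 121 lost the threshold, and 2071 and 159 for the difference between settings. Averaging probe sets ended the hour calls of Ddc, Nat8f2, Rgs4 and Cebpd and the HGF calls of Ddc and Cebpd. Of 608 list medians 518 moved by less than the spread and 90 by more. Dim genes such as Cxcl3, Cxcl5 and Cd163 are limited by background.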

Other observations

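Some strong changes lay outside the lists and were named after their values had been seen. Ivl (involucrin) and Crct1, genes known from cornified epithelium, both rose. Ivl read 5.13 and 5.03 without and 8.00 and 8.16 with IL-6 at 24 h, and 3.35 and 3.57 without and 5.48 and 5.04 with IL-6 at 32 h, with 2 of 4 unstimulated arrays above the 40th percentile, and rose by 2.40 ± 0.19. Crct1 read 9.26 and 9.27 against 11.17 and 11.30 at 24 h, and 9.45 and 9.51 against 11.81 and 11.60 at 32 h, without overlap, and rose by 2.10 ± 0.06. Their differences with HGF were 0.74 and 0.65, and the test between the settings passed for both (limma adjusted p = 1.16e-05 and 1.7e-16). The sulfotransferase Sult1a1 rose by 1.28 ± 0.13 and the folate enzyme Aldh1l1 by 1.03 ± 0.05, against the direction of most members of the enzyme lists.

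Arg1, the arginase of the urea cycle, read 6.71 and 7.11 against 5.19 and 5.15 at 24 h, and 3.83 and 4.51 against 3.71 and 4.10 at 32 h. It fell by 1.00 ± 0.14 on average, with -1.74 at 24 h and -0.27 at 32 h, where the difference did not pass (limma adjusted p = 0.393). The test between the hours passed (1.47, limma adjusted p = 0.00197). All Arg1 levels at 32 h lay below the array medians of 4.88 to 4.91, so the size of the difference at that hour is uncertain. Haptoglobin (Hp), an abundant acute phase protein, read 14.05 and 14.11 against 14.33 and 14.31 at 24 h, and 13.21 and 13.28 against 13.99 and 13.92 at 32 h, a rise of 0.48 ± 0.03 without HGF and of 1.00 with it. These differ in the test between the settings (limma adjusted p = 4.92e-13).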
